A study of Sus scrofa with 8 samples.

Results

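The porcine microRNAs (miRNAs) numbered 9000 and above were followed on 8 1-colour Agilent arrays of corpus luteum, an ovarian gland that arises from the ovulated follicle and secretes progesterone. They were taken as every array target whose porcine name carries an miRNA number of at least 9000, whether or not it was detected. This gave 79 of the 686 targets on the array, with 1 target for each number from 9784 to 9862. Of these, 38 were named for the 5p arm and 41 for the 3p arm of the hairpin. The names nearest to the threshold, miR-9784-5p inside and miR-7857-3p outside, were both detected on 0 arrays. Members were thus selected on their names, but the range itself was chosen by measured values, since it was put forward after the differences between pregnant and cyclic arrays of several of its members were known. Counts of changed members are therefore a description, and nothing is read from them about the range.

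An miRNA is cut from a hairpin precursor, and a strand from either arm is loaded into an Argonaute protein, where it pairs with target messenger RNAs, mainly through its seed near the 5′ end. Numbers are given in order of registration, so high numbers mark late entries, most of them found by sequencing small RNA and many known from 1 species only. Little is established about the function of the members in the corpus luteum, a gland that regresses late in an infertile cycle and is kept when an embryo signals its presence.

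Luteal tissue came from crossbred gilts of 6 to 8 months from a single commercial herd. The cyclic group (4 arrays) was not inseminated and was sampled on day 14 of the estrous cycle. The pregnant group (4 arrays) was inseminated at the second estrus and was sampled on day 14 of pregnancy. The tissue was taken post mortem and frozen, and each array held Cy3-labelled RNA of a single sample, which the labels call a biological replicate. In tissue of mixed cells, fewer cells of a type and less RNA per cell cannot be told apart.

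Between 22.8% and 28.8% of the spots on an array were well above background, and 0 were saturated. The ovarian miR-202-3p, a marker of the gonads, was detected on all 8 arrays, while all 5 muscle, 1 liver and 3 neural marker entries were detected on 0. Cyclic replicate 1 stood apart from its group. Over the 211 tested targets, after the mean of each target was removed, it correlated with the other cyclic arrays at a mean r of −0.43 and with the pregnant arrays at 0.22, whereas the other cyclic arrays had means of −0.62 to −0.55 with the pregnant ones. Slide 1 carried pregnant replicates 1 and 2, slide 2 carried cyclic replicates 1 and 2, and slide 3 carried the remaining 4 arrays, 2 from each group. The scan of slide 1 fell on scan day 1, and slides 2 and 3 shared scan day 2.

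Few members gave a signal in the corpus luteum. Detection on an array required that at least 0.5 of the probe's spots were well above background. By this measure 14 of the 79 members (17.7%) were detected on at least 1 array, and 8 of them on all 8. Another 2 members, miR-9852-3p on 7 arrays and miR-9835-3p on 5, also reached the 4 arrays required for testing, which left 10 tested members, 5 of each arm. The remaining 65 members were detected on 0 arrays. Among their 139 probes, 7 had any spot well above background on some array, at most 20.0% of the spots. On each array the median intensity of these 65 was −0.629 to −0.113 and the highest 4.20 to 8.88, against 8.55 to 11.8 for the dimmest detected probe of the array and 0.437 to 1.29 for the median of the negative control spots. They were not detectable at this signal, which does not show that they are absent. The number of members detected was 10, 11, 11 and 13 on cyclic replicates 1 to 4 and 11, 11, 10 and 8 on pregnant replicates 1 to 4, so the groups overlapped. Beside these, 200, 211, 199 and 223 of all targets were detected on the cyclic arrays and 219, 211, 208 and 181 on the pregnant arrays. The highest and the lowest member count thus came from the arrays with the most and the fewest targets detected.

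**Figure D1:**
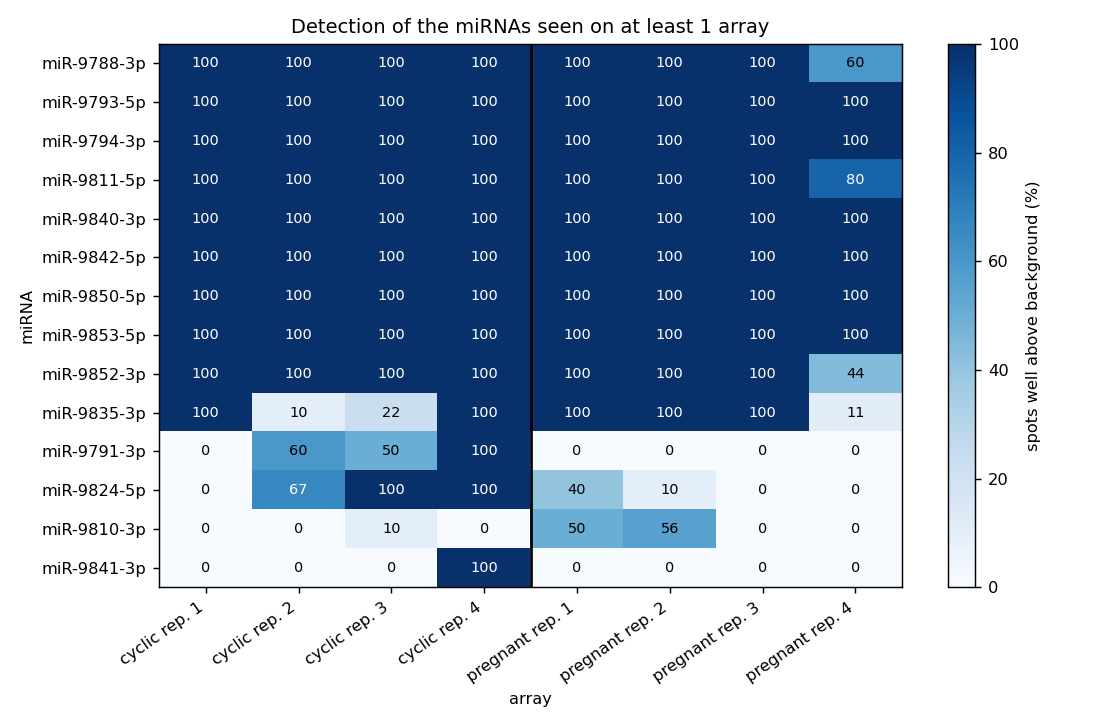
Percent of spots well above background for the 14 miRNAs detected on at least 1 array (rows) on each of the 8 arrays (columns, cyclic left of the line, pregnant right). The first 8 rows are detected throughout, and miR-9791-3p and miR-9824-5p reach the 50% needed on cyclic replicates 2, 3 and 4 only.

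Among the tested members, 5 were lower in pregnancy than in the cycle and 0 higher (limma over all 211 tested targets, Benjamini-Hochberg adjusted p under 0.05). The 5 were miR-9840-3p, miR-9850-5p, miR-9788-3p, miR-9853-5p and miR-9852-3p, with differences from −1.37 to −0.61 on the log2 scale, and the other 5 did not pass. Of all tested targets, 6.16% were lower and 5.21% higher by the same rule. At an unadjusted p under 0.05, 6 members were lower and 0 higher, beside 15.6% and 19% of all tested targets. The median difference of the 10 was −0.64, beside 0.01 over all tested targets. All 4 pregnant arrays lay below all 4 cyclic arrays in 6 members, the 5 and miR-9811-5p, and in 7.11% of all tested targets. The reverse order was found in 0 members and 9.95% of targets.

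Levels are log2 of the scaled intensity, in which 0 stands for the array's 75th percentile among targets detected throughout, and they are compared between arrays and not between miRNAs. The strand miR-9840-3p had the largest difference of the members. It read −2.52, −1.85, −1.28 and −1.29 on cyclic replicates 1 to 4, and −3.10, −3.00, −3.16 and −3.17 on pregnant replicates 1 to 4. The pregnant arrays lay close together, while the cyclic arrays were spread out, with replicate 1 nearest to the pregnant ones. The means were −1.74 ± 0.59 in the cycle and −3.11 ± 0.08 in pregnancy (SD, n = 4 each), so that miR-9840-3p stood at 0.386 of its cyclic level (difference −1.37 ± 0.25, SE, limma adjusted p = 0.0103). Without cyclic replicate 1 the difference was −1.64 ± 0.18 (adjusted p = 4.6e-05). This call was kept in each of the 8 fits that left out 1 array.

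The strand miR-9850-5p read −2.15, −2.11, −1.76 and −1.88 on the cyclic arrays and −2.68, −2.50, −2.84 and −2.58 on the pregnant arrays. Cyclic replicate 1 was again the lowest of its group, close to cyclic replicate 2, and the groups did not overlap. The difference was −0.68 ± 0.15, or 0.626 of the cyclic level (limma adjusted p = 0.0217). Values of miR-9853-5p were −1.15, −0.99, −0.70 and −1.27 in the cycle and −1.58, −1.42, −1.86 and −1.69 in pregnancy. The lowest cyclic array, replicate 4, lay 0.15 above the highest pregnant array, replicate 2. Its difference was −0.61 ± 0.16, or 0.654 of the cyclic level (limma adjusted p = 0.0317).

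The strands miR-9788-3p and miR-9852-3p lay closer to background. miR-9788-3p read −3.27, −3.04, −2.99 and −3.30 on the cyclic arrays and −3.96, −3.48, −3.98 and −4.04 on the pregnant arrays. Pregnant replicate 2 was the highest of its group and still lay below each cyclic array. The difference was −0.72 ± 0.18 (0.609 of the cyclic level, limma adjusted p = 0.0294). For miR-9852-3p the cyclic values were −3.44, −3.04, −3.10 and −2.48 and the pregnant values −3.67, −3.66, −3.87 and −4.11. On pregnant replicate 4 it was not detected, with 44.4% of its spots well above background, and cyclic replicate 1 was again the lowest of its group. It stood at 0.569 of its cyclic level (−0.81 ± 0.21, limma adjusted p = 0.0317).

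The 5 calls differed in how well they held. Without cyclic replicate 1 all 5 passed and miR-9811-5p joined them, making 6, beside 19% of all tested targets that were lower in that fit. Without cyclic replicate 3, or without pregnant replicate 1, 3 or 4, miR-9840-3p alone passed, beside 2.37% to 2.84% of all tested targets. Without cyclic replicate 2 there were 2 (miR-9840-3p and miR-9850-5p), beside 2.84%. Without cyclic replicate 4 or pregnant replicate 2 there were 3, beside 3.32% in either fit. Of the fits that left out 1 array, miR-9788-3p and miR-9850-5p each passed in 3, miR-9853-5p in 2 and miR-9852-3p in 1. All 5 differences stayed negative in every one of these fits.

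Of the members that did not pass, miR-9811-5p came nearest. It read −3.35, −3.23, −1.99 and −3.09 in the cycle and −3.66, −3.46, −4.03 and −3.93 in pregnancy. The groups did not overlap, but cyclic replicate 3 lay far above the other cyclic arrays and the gap between cyclic replicate 1 and pregnant replicate 2 was small. The difference was −0.85 ± 0.28 (limma adjusted p = 0.0758), and −0.998 ± 0.28 without cyclic replicate 1 (adjusted p = 0.0163).

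The strand miR-9842-5p had intensities of 242 to 466, far above the dimmest detected probes. Its levels were 0.75, 0.65, 0.42 and 0.29 on the cyclic arrays and 0.33, 0.56, 0.08 and 0.36 on the pregnant arrays, which overlapped. The difference was −0.20 ± 0.14 (limma adjusted p = 0.383), and it became 0.10 when arrays were scaled over all probes, a scaling that raised the median difference of all tested targets by 0.30.

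The other 3 tested members had small positive differences. miR-9835-3p read −4.09, −4.85, −4.41 and −4.42 on the cyclic arrays and −4.15, −4.22, −4.25 and −4.44 on the pregnant arrays, where −4.85 is the floor set for undetected signal. It was undetected on cyclic replicates 2 and 3 and on pregnant replicate 4, and its difference of 0.18 ± 0.18 rests partly on the floor (limma adjusted p = 0.559). miR-9794-3p read −3.25, −3.86, −3.28 and −3.54 in the cycle and −3.4, −3.26, −3.49 and −3.27 in pregnancy (0.13 ± 0.18, limma adjusted p = 0.701). Cyclic replicates 2 and 4 lay below the pregnant range, and without cyclic replicate 2 the difference was −0.0012. Values of miR-9793-5p were −3.41, −4.10, −3.79 and −3.71 in the cycle and −3.69, −3.71, −3.90 and −3.63 in pregnancy (0.02 ± 0.18, limma adjusted p = 0.963). The sign of this difference turned in several settings, among them without scaling (−0.02) and without cyclic replicate 2 (−0.10). For all 3 the groups overlapped.

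**Figure D2:**
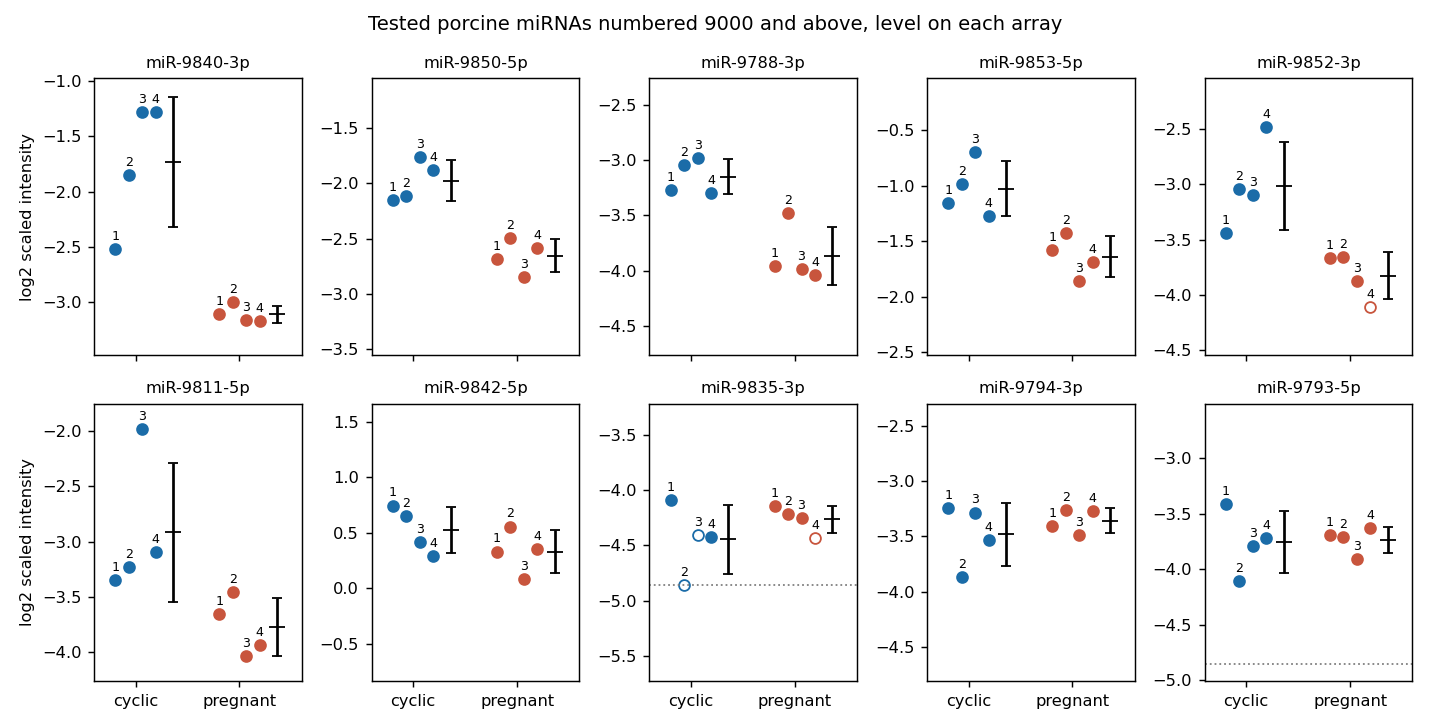
Log2 scaled intensity of the 10 tested miRNAs on each array (points, numbered by replicate; open points, not detected), with the group mean and SD (bar at the right of each group) and the floor as a dotted line where it falls within the panel. The panels share the same height in log2 units, each around its own midpoint, and in the first 6 panels every pregnant point lies below every cyclic point.

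Each member had 20 spots on the array, in 2 probes for 72 members and in 3 or 4 for the other 7, and the probe with the highest mean signal was used. The spread between spots of the probe used was small, with a median coefficient of variation of 7.82% over detected arrays of the tested members. For 7 tested members 2 probes were detected on at least 4 arrays, and the group differences of the probes then lay within 0.0034 to 0.046 of each other. The second probe of miR-9840-3p gave −1.37 and that of miR-9853-5p −0.65. All 5 members that passed, with miR-9811-5p and miR-9842-5p, belong to these 7, and their second probes gave the same order of groups. For miR-9835-3p, miR-9794-3p and miR-9793-5p the second probe was detected on 0 arrays, so that 1 probe carries the value. Among all tested targets 19.9% rested on 1 of several probes. Probes of a member address the same mature strand on the same array and are not independent measurements.

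**Figure D3:**
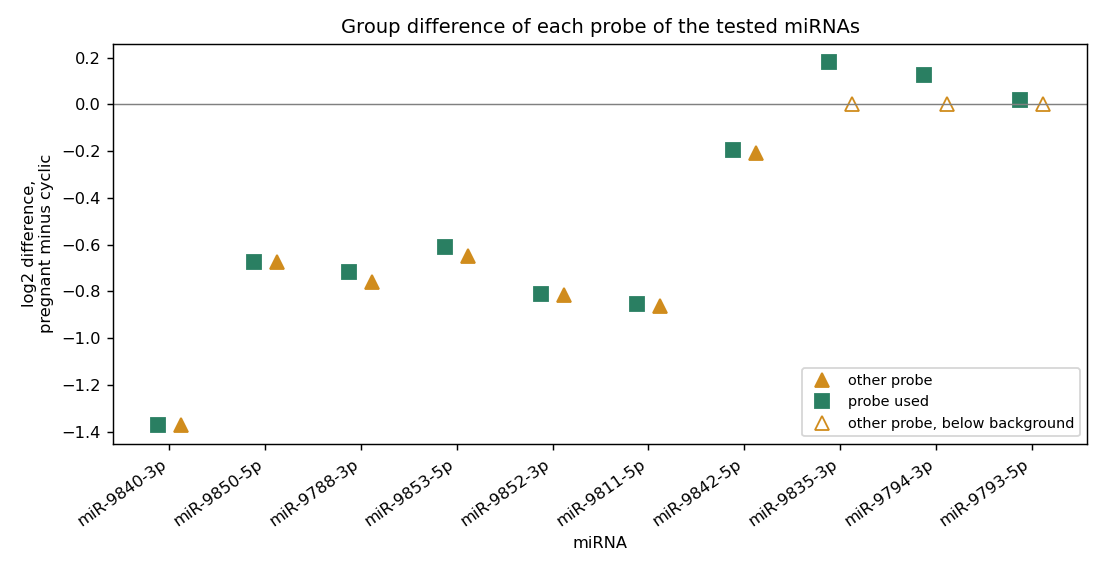
Group difference (log2, pregnant minus cyclic) of the probe used (squares) and of the other probe (triangles; open, below background on all arrays) for the 10 tested miRNAs. The 7 miRNAs with both probes detected give paired symbols at nearly the same height, and the open triangles at 0 lie at the floor in both groups.

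A further 4 members were detected on 1 to 3 arrays and were not tested. miR-9791-3p was detected on cyclic replicates 2, 3 and 4 (−4.59, −4.31 and −4.28), and its other 5 arrays lay at the floor. miR-9824-5p was likewise detected on cyclic replicates 2, 3 and 4 alone (−4.56, −3.6 and −4.45), with the pregnant arrays at the floor. In both, cyclic replicate 1 was undetected, as were the 4 pregnant arrays. Pregnant replicate 1 had 40% of the spots of miR-9824-5p well above background, below the 50% needed. For miR-9824-5p the cyclic mean of the probe used was at least 1.24-fold higher. The bound sets the mean of the cyclic arrays against the dimmest detected probe of each pregnant array. The second probe of miR-9824-5p was detected on 1 array and its groups overlapped. Its cyclic mean lay below the bound (−4.672 against −4.670), so the fold rests on 1 probe. miR-9841-3p was detected on cyclic replicate 4 alone (−4.34), with 100% of its spots well above background, and it is named here after its values were seen. miR-9810-3p was detected on pregnant replicates 1 and 2 alone, with 50% and 55.6% of its spots and levels of −4.85 (the floor) and −4.68, and these are the arrays of slide 1. Among the undetected arrays of miR-9810-3p, cyclic replicate 3 read −4.61 and the others lay at the floor. No fold is given for miR-9841-3p and miR-9810-3p, nor for miR-9791-3p, whose cyclic mean lay below the bound (−4.73 against −4.67) with cyclic replicate 1 at its own value in place of the floor.

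The slides and scan days were set beside the differences, because slides 1 and 2 each held a single group. Within slide 3, with 2 arrays per group, miR-9840-3p differed by −1.88 ± 0.23 (limma adjusted p = 0.00498) and miR-9852-3p by −1.20 ± 0.30 (adjusted p = 0.0367). There miR-9811-5p passed as well (−1.44 ± 0.38, adjusted p = 0.0461), making 3 members lower, beside 9% of all tested targets. The other 3 members that passed over all 8 arrays kept their sign within slide 3. They differed there by −0.89 for miR-9850-5p, −0.87 for miR-9788-3p and −0.79 for miR-9853-5p. These 3 did not pass there, with limma adjusted p of 0.0513, 0.0629 and 0.0790. A fit with slide as a block rests on the same contrast and called 4 members lower, miR-9840-3p, miR-9850-5p, miR-9852-3p and miR-9811-5p, beside 9% of all tested targets. Within scan day 2, which held 4 cyclic and 2 pregnant arrays, 0 members passed by limma, beside 0.948% of all tested targets that were lower. At an unadjusted p under 0.05, 6 members were lower there, beside 10.9% of all tested targets. The difference of miR-9840-3p was −1.43 ± 0.35 (limma adjusted p = 0.0788). Each of the 5 differences was larger in size within slide 3 than over all 8 arrays. Slide 3 does not hold cyclic replicate 1, and leaving out that array alone also made each of the 5 larger.

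**Figure D4:**
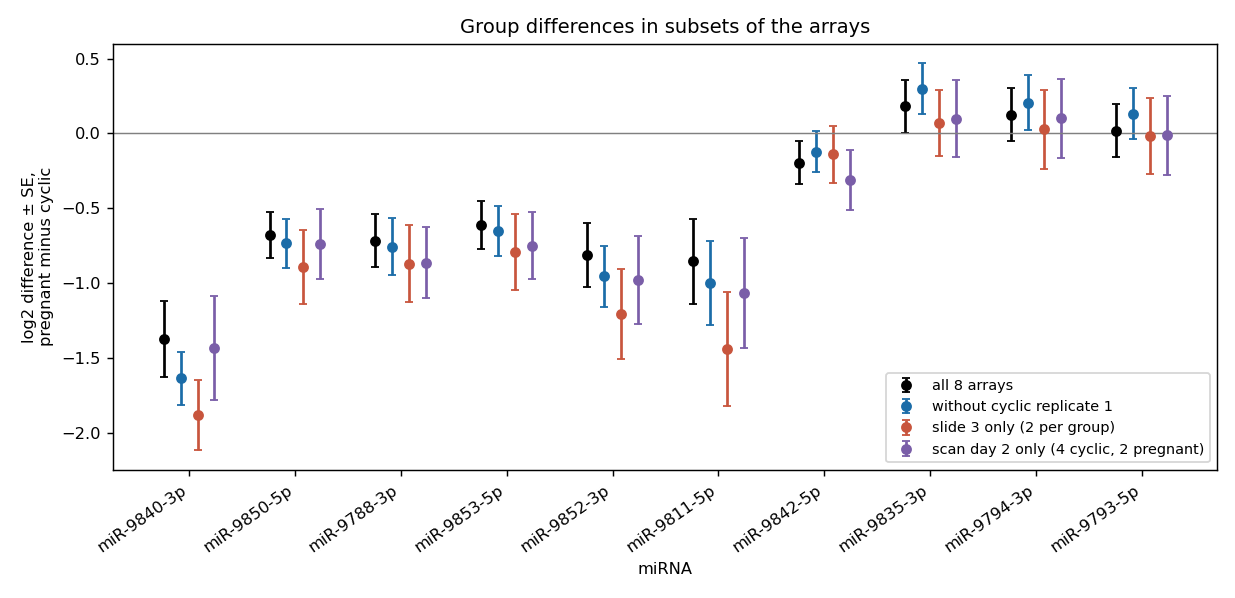
Log2 difference with its SE (pregnant minus cyclic) for the 10 tested miRNAs over all 8 arrays, without cyclic replicate 1, within slide 3 and within scan day 2. The first 6 miRNAs lie below 0 in each subset, and the last 4 stay within 0.31 of 0.

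Levels of markers of other cells were set beside these differences, and the group ranges of the summed level overlapped in every list with a tested entry. In the leukocyte and fibroblast lists this overlap came from cyclic replicate 1 alone, and the other cyclic arrays lay above every pregnant array. Of 11 leukocyte entries, 8 were tested, of which 1 was lower (ssc-miR-155-5p) and 0 higher, and their summed scaled intensity was 0.929 to 5.23 on the cyclic arrays and 1.01 to 1.23 on the pregnant arrays. The lowest cyclic value, 0.929, belonged to cyclic replicate 1. The porcine entries ssc-miR-142-3p, ssc-miR-146b and ssc-miR-342 were detected on 0 arrays, while mmu-miR-342-3p was detected on 8 and hsa-miR-146b-5p on 5. Differences of the 8 entries ran from −2.29 for hsa-miR-223-3p, a marker of neutrophils and monocytes (limma adjusted p = 0.0758), to 0.04 for hsa-miR-146b-5p. On cyclic replicates 1 to 4 hsa-miR-223-3p read −3.16, −0.33, −0.02 and 1.74, and on the pregnant arrays −2.84 to −2.65, so that cyclic replicate 1 lay below the pregnant range. Of 6 fibroblast entries, 5 were tested, none of which passed (0 lower, 0 higher), and they summed to 3.57 to 8.49 in the cycle and 3.85 to 4.31 in pregnancy, again with cyclic replicate 1 lowest, and hsa-miR-214-5p was detected on 0 arrays. In the cycle and in pregnancy, in that order, the sums were 6.76 to 7.95 and 7.55 to 9.44 for the endothelial list. They were 1.25 to 1.87 and 1.28 to 1.7 for the smooth muscle list, and 0.210 to 0.540 and 0.343 to 0.626 for the gonadal list. The 1 tested erythroid entry, ssc-miR-451, gave 1.27 to 7.17 and 1.25 to 6.16. Of the other erythroid entries, ssc-miR-144 was detected on 3 arrays and ssc-miR-486 on 0. The 1 tested epithelial entry, hsa-miR-141-3p, gave 0.0882 to 0.137 and 0.0951 to 0.127. The epithelial entries ssc-miR-205 and ssc-miR-429 were detected on 0 arrays. The part of these cells in the differences of the members was not tested.

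By name range, members were detected less widely than the other targets. At least 1 array detected 17.7% of the 79 members, 26.3% of the 38 porcine targets numbered from 2000 up to 9000, 53.4% of the 290 porcine targets with lower numbers or let-7 names, and 21.9% of the 279 targets named for other species. The shares tested were 12.7%, 21.1%, 49.7% and 17.6%. Of the 13 targets lower in pregnancy over the whole array, 5 were members, 2 of 8 tested lay in the middle number range, 4 of 144 in the lowest and 2 of 49 among other species. The 11 higher targets were spread as 0, 1, 7 and 3. Medians of the differences were −0.64, 0.34, 0.03 and −0.05 in the same order. These shares and medians were not tested, and those of the group difference were in view when the range was put forward.

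**Figure D5:**
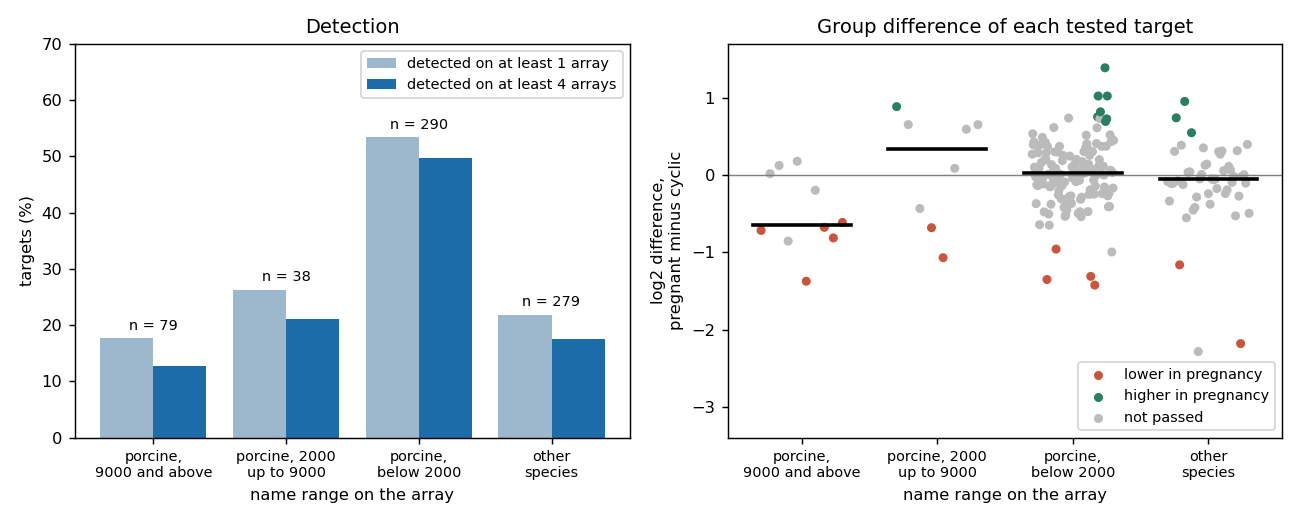
Left, percent of targets detected on at least 1 and at least 4 arrays in 4 name ranges of the array (n, targets in the range). Right, log2 difference (pregnant minus cyclic) of each tested target, coloured by whether it passed the limma test, with the median as a line, which lies at −0.64 for the 10 members and at −0.05 to 0.34 for the other ranges.

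Pairs of the 5 members that passed were compared across the arrays. Over the 8 arrays their 10 pairs correlated at r from 0.68 to 0.95, which the choice of members lower in pregnancy largely fixes. Once the group means were removed r ran from −0.08 to 0.79 with a median of 0.42. With the group means removed, the lowest value belonged to miR-9853-5p with miR-9852-3p and the highest to miR-9788-3p with miR-9853-5p. These correlations describe 8 arrays that share their scaling. The targets outside the range whose pattern over the 8 arrays was most like the mean of the 5 were ssc-miR-371-5p (r = 0.97), mmu-miR-21a-3p, the passenger strand of miR-21 (0.96), ssc-miR-345-3p (0.95), hsa-miR-208a-5p (0.95) and ssc-miR-4338 (0.95). Within groups the same targets gave r of 0.80, 0.87, 0.58, 0.97 and 0.89. All but hsa-miR-208a-5p (difference −0.42, limma adjusted p = 0.118) were themselves lower in pregnancy. That direction is largely fixed too, since these targets were ranked by likeness to members lower in pregnancy. The means of hsa-miR-208a-5p, −4.33 in the cycle and −4.75 in pregnancy, lay near the floor of −4.85, which limits its r.

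Of the 79 members, 66 matched a porcine miRNA gene in RefSeq (assembly Sscrofa11.1) by number, in 69 genes, and 63 were placed on a chromosome. Of those 63, 31 (49.2%) lay within the span of a protein-coding gene, as did 7 of the 12 placed members that were detected. The array names no genome build, and strand was not compared. The gene of miR-9840 lay within TBC1D1, a Rab GTPase-activating protein of glucose transporter traffic. The MIR9853-1 gene lay within the spans of both GLP2R, a receptor for a gut peptide hormone, and RCVRN, the photoreceptor protein recoverin. Both copies of MIR9788 lay between PLEKHH3 and RETREG3, MIR9850 between IL20RB and SOX14, and MIR9852 between PTHLH, which encodes parathyroid hormone-related protein, and KLHL42. MIR9811 lay between AHSA2 and C3H2orf74. The members without a passing difference included MIR9842 within GRIK3, a kainate-type glutamate receptor, MIR9835 within WDFY4, a gene of dendritic cells and lymphocytes, and MIR9794 between GRPR and CTPS2. The seldom detected members lay within AFDN (MIR9824), F13A1 (MIR9841), which encodes coagulation factor XIII A of platelets and macrophages, and MPC2 (MIR9810), a subunit of the mitochondrial pyruvate carrier. The array measures no messenger RNA, so these genes were not compared with the members.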

How the data were processed

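Spot intensities, linear and already corrected for background, were deposited as written by Agilent Feature Extraction 10.7.3.1, per the file headers (version 10.7 in the submitters' processing notes). A deposited table of log2 values, centred per spot by the authors, served as an alternative. Over targets detected on all arrays its values followed centred log2 intensity with slopes of 0.823 to 0.992 and r of 0.868 to 0.975, so scale, centring and direction were clear, while its scaling between arrays stays unknown. Its columns for cyclic replicates 2 and 4 were taken as a score, since 3 deposited cells above 100 were read as missing. The median of each cyclic column, in replicate order, was 0.0108, −0.000283, 0.000689 and −0.000205, and that of each pregnant column −0.000302, 9.45e-05, −9.45e-05 and 0.0318.

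Control spots (715) and outlier spots (384 to 453 per array) were left out. Intensities were averaged over the spots of a probe, divided by the array's 75th percentile (189 to 316) over targets detected on all arrays, raised to a floor, the 1st percentile of detected probes (−4.85 in log2), where lower, and taken to log2. Targets detected on at least 4 of the 8 arrays were tested with limma 3.58.1 (lmFit, eBayes with trend, 2-sided) in R 4.3.3, adjusted by Benjamini-Hochberg over all 211. The number of arrays limits the precision. The code was tested on simulated data. Alternatives covered background correction, scaling, detection filter, floor, probe summary, blocks and single arrays.

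Values on every array are given for members that passed and up to 10 others with the largest differences, covering every other tested member. They are also given for members detected on at least 2 more arrays in a group than in the other. Up to 5 other targets are named for likeness (Pearson r with the mean of the members that passed). Marker lists covered gonadal, leukocyte, erythroid, endothelial, smooth muscle, fibroblast, muscle, liver, epithelial and neural miRNAs. The members, lists and tests were chosen with earlier results of these data known. Figures used Python 3.11.15 and matplotlib 3.10.9.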

Additional observations from a re-analysis of the deposited data

Results flagged for a closer look

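Among the tested members detected on all 4 arrays of a group (17 groups of 4), 1 array lay far from the other 3 relative to the range of its group. On pregnant replicate 2, miR-9788-3p read −3.48, while the next array read −3.96 and the lowest −4.04. Chance alone marks about 1 in 20 such groups.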

How the results depend on the processing

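The 5 members that passed stayed negative in every alternative run (30 for 4 of them, 29 for miR-9852-3p). They passed in 27 (miR-9840-3p), 18 (miR-9850-5p), 16 (miR-9788-3p), 12 (miR-9853-5p) and 10 (miR-9852-3p) of these. The number of members lower was 3 under quantile normalization or with the authors' table, beside 4.27% of all tested targets in either fit. It was 3 with the total gene signal or a floor at the 5th percentile (beside 3.32% each). It was also 3 with detection on at least 1 array (2.92%) and within slide 3 (9%). With normexp (offset 50) or no scaling it was 1 (2.84% each), as with scaling over all probes (3.32%). It was 0 without a detection filter (79 members tested, beside 0.146%), with scan day as a block and within scan day 2 (0.948% each). In the last 3 fits 7, 6 and 6 members were lower at an unadjusted limma p under 0.05, beside 4.08%, 12.3% and 10.9% of all targets tested. Leaving out each array gave 1 to 6, beside 2.37% to 19% of all tested targets, and 0 members were higher in any setting. With a replicate block 4 were lower, beside 6.64% of all tested targets, and miR-9852-3p was lost. The replicate numbers mark no shared source in the labels, and correlations of same-numbered deviations were 0.10, 0.10, −0.18 and 0.16.

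The median difference of tested members was −0.21 with normexp, −0.34 with scaling over all probes and 0 without a filter, and −0.71 to −0.52 with an array left out. Without a filter the 65 undetected members, most of them at the floor in both groups, entered this median, which fixes it near 0. The offset of 50 in normexp makes log2 differences smaller, most of all for dim members. Small differences changed sign. miR-9842-5p was 0.10 with scaling over all probes. miR-9793-5p was −0.022 without scaling, −0.0080 with the total gene signal, −0.017 with slide as a block (also without cyclic replicate 1) and within slide 3, −0.013 with scan day as a block or within scan day 2, and −0.10 to 0.13 with an array left out. miR-9794-3p ranged from −0.0012 to 0.20 with an array left out. Over all tested targets, 24 passed, against 11 with normexp, 62 with scaling over all probes (7 lower, 55 higher, against 13 and 11; 18 lower and 8 higher relative to its median shift), 9 without scaling (6 lower, 3 higher), 10 with the total gene signal (7 and 3), 11 with detection on at least 1 array, 1 without a filter, 11 with the higher floor, 2 with scan day, 81 without cyclic replicate 1, 45 with slide as a block and without it, and 7 to 12 without another array. Quantile normalization gave 9 lower and 14 higher. Scan day 2 alone, the median shift and the slide block without cyclic replicate 1 were chosen after seeing the data. The causes were not tested. Signal near background limits the values of the dimmest members.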
